A study of Homo sapiens with 18 samples.

Results

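Class 3 semaphorins are secreted guidance proteins, and the 10 genes described here encode 5 of them (SEMA3A, SEMA3C, SEMA3D, SEMA3E and SEMA3F), both neuropilins (NRP1 and NRP2) and 3 plexins of the A type (PLXNA1, PLXNA2 and PLXNA4). The genes were chosen by name from the array's probe annotation, with earlier results of these arrays known, and each is read by the probe with the highest mean log2 signal over all arrays. All 10 were found among 17687 named genes (21448 probes), and each had 1 probe, so the mean signal decided nothing. Because the genes were picked with results in view, the values below describe them, and their counts are read against the share of all probes that passed the same test.

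Neuropilins have a short tail inside the cell and bind secreted semaphorins outside it. They pair with A-type plexins, whose intracellular part acts on small GTPases of the Ras and Rap family and so changes the cytoskeleton. The system is best known for repelling or steering axons, and in mouse embryos it guides migrating neural crest cells and sympathetic neurons, the lineage from which neuroblastoma arises. Neuropilins are also co-receptors for vascular endothelial growth factors.

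RNA came from CHLA-90 cells and from SK-N-BE(2) cells, neuroblastoma lines of which SK-N-BE(2) carries amplified MYCN. In each line cells received pLKO lentivirus made in HEK-293T cells that encoded shERK5-4, shERK5-5 or the control hairpin shNSC, with 250000 cells per well, and RNA was taken at 72 hours. Each of the 6 groups had 3 replicates, each a biotin-labelled sample read on an array that gives a log2 signal per probe. The labels do not say whether replicates were separate transductions, so the p-values measure the spread between these samples, which may be technical. Every group, shNSC included, carried a lentiviral hairpin, and each line stands for 1 tumour. A lower signal in RNA from a whole well can come from fewer cells expressing a gene or from less RNA per cell, and these cannot be told apart here.

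The target of the hairpins, MAPK7 (which encodes the kinase ERK5), kept 47.7% of its shNSC signal in CHLA-90 given shERK5-4 and 50.5% in CHLA-90 given shERK5-5. In SK-N-BE(2) the shares were 61.8% and 64.3%. Array medians lay between 6.35 and 6.43 in CHLA-90 and between 5.63 and 5.69 in SK-N-BE(2), so differences between the lines depend on the scaling. Markers of sympathetic neuroblastoma were present in both lines under shNSC, for example ISL1 at 10.59 in CHLA-90 and 13.84 in SK-N-BE(2), and PHOX2A at 11.69 and 12.35. DBH, the noradrenaline-forming enzyme, was at 13.67 in CHLA-90 and 4.87 in SK-N-BE(2). The endothelial markers PECAM1, CDH5 and TEK had means between 3.58 and 4.18 in CHLA-90 and between 2.95 and 4.08 in SK-N-BE(2) under shNSC, and VWF was at 5.96 and 5.01. The lower quartile of all probes lay between 4.06 and 4.29 on CHLA-90 arrays and between 3.54 and 3.67 on SK-N-BE(2) arrays.

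The 4 receptor genes whose stretch before the transcription start is held in the RefSeq promoter table (GRCh38.p14), and whose signal moved the same way with shERK5-4 in both lines, are shown here with the 250 bases upstream of that start. They are shown because NRP2, PLXNA2 and PLXNA4 fell together with that hairpin and PLXNA1 rose. Bases are written 5′ to 3′ on the gene's strand, and capitals mark GC boxes (GGGCGG on either strand, overlaps included), the motif bound by SP factors.
NRP2 (chr2:205682251-205682500, plus strand): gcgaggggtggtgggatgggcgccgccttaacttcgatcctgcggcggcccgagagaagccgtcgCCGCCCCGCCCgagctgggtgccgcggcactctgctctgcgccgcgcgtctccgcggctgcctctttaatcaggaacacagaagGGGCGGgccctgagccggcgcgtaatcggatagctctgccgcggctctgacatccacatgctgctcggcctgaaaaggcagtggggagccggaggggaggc
PLXNA1 (chr3:126982865-126983114, plus strand): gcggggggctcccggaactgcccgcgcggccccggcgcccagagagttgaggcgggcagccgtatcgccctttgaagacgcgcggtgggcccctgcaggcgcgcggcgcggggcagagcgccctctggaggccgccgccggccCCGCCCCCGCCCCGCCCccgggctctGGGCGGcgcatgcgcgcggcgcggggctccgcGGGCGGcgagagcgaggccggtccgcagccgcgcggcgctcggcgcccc
PLXNA2 (chr1:208244385-208244634, minus strand): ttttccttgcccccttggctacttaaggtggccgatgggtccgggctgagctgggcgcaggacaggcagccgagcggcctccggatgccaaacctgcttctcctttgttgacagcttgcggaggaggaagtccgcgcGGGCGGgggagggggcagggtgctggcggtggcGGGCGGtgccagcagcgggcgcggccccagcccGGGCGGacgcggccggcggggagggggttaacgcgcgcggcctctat
PLXNA4 (chr7:132576471-132576720, minus strand): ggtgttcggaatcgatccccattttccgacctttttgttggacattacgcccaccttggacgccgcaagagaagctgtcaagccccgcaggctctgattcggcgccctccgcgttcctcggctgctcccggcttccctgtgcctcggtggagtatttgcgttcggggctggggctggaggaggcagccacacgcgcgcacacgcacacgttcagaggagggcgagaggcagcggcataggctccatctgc
The stretches hold 3 GC boxes in NRP2, 5 in PLXNA1, 3 in PLXNA2 and 0 in PLXNA4, and 42.6% of all 35116 upstream stretches of this length in the table hold at least 1. The E-box CACGTG, which MYCN binds with MAX, and the MEF2 box CTANNNNTAG, the motif of factors that ERK5 phosphorylates, were searched on both strands and had no match in these 4 stretches. Over all stretches 6.34% hold the E-box and 2.36% the MEF2 box. GC content was 70.0% in NRP2, 84.4% in PLXNA1, 72.4% in PLXNA2 and 63.6% in PLXNA4. A match of letters is a description and not a binding site. Of the 10 genes, 8 had an entry in the table.

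More of the 10 genes passed the test with shERK5-4 than with shERK5-5. NRP1 and PLXNA4 fell with each hairpin in each line. NRP2, SEMA3C and PLXNA2 fell with shERK5-4 in both lines, and PLXNA1 rose. SEMA3A, the ligand for NRP1, rose 6.2-fold with shERK5-4 in CHLA-90 but fell with either hairpin in SK-N-BE(2). With shERK5-4, 5 of the 10 genes were lower in CHLA-90 and 2 higher, where 8.25% of all probes were lower and 10% higher. In SK-N-BE(2) the same hairpin lowered 7 and raised 1, against 11.7% and 12.2% of all probes. With shERK5-5, 2 were lower and 0 higher in CHLA-90 (6.84% and 5.85% of all probes), and 3 were lower and 1 higher in SK-N-BE(2) (6.07% and 6.76%). A call here means an adjusted p below 0.05 in limma over all probes. The 2 hairpins of a line were set against the same 3 shNSC arrays, so their changes are not independent of each other, while the lines share no arrays. With shERK5-4, 5 of the 10 genes were lower in both lines (5.00% of all probes) and 1 was higher in both (5.43%), and with shERK5-5, 2 were lower in both (2.63%). The median log2 change of the 10 genes in CHLA-90 was -0.54 given shERK5-4 and -0.19 given shERK5-5, and in SK-N-BE(2) it was -0.81 and -0.46, while the median of all probes was 0.01, 0.05, 0.01 and -0.0033 in the same order.

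**Figure D1:**
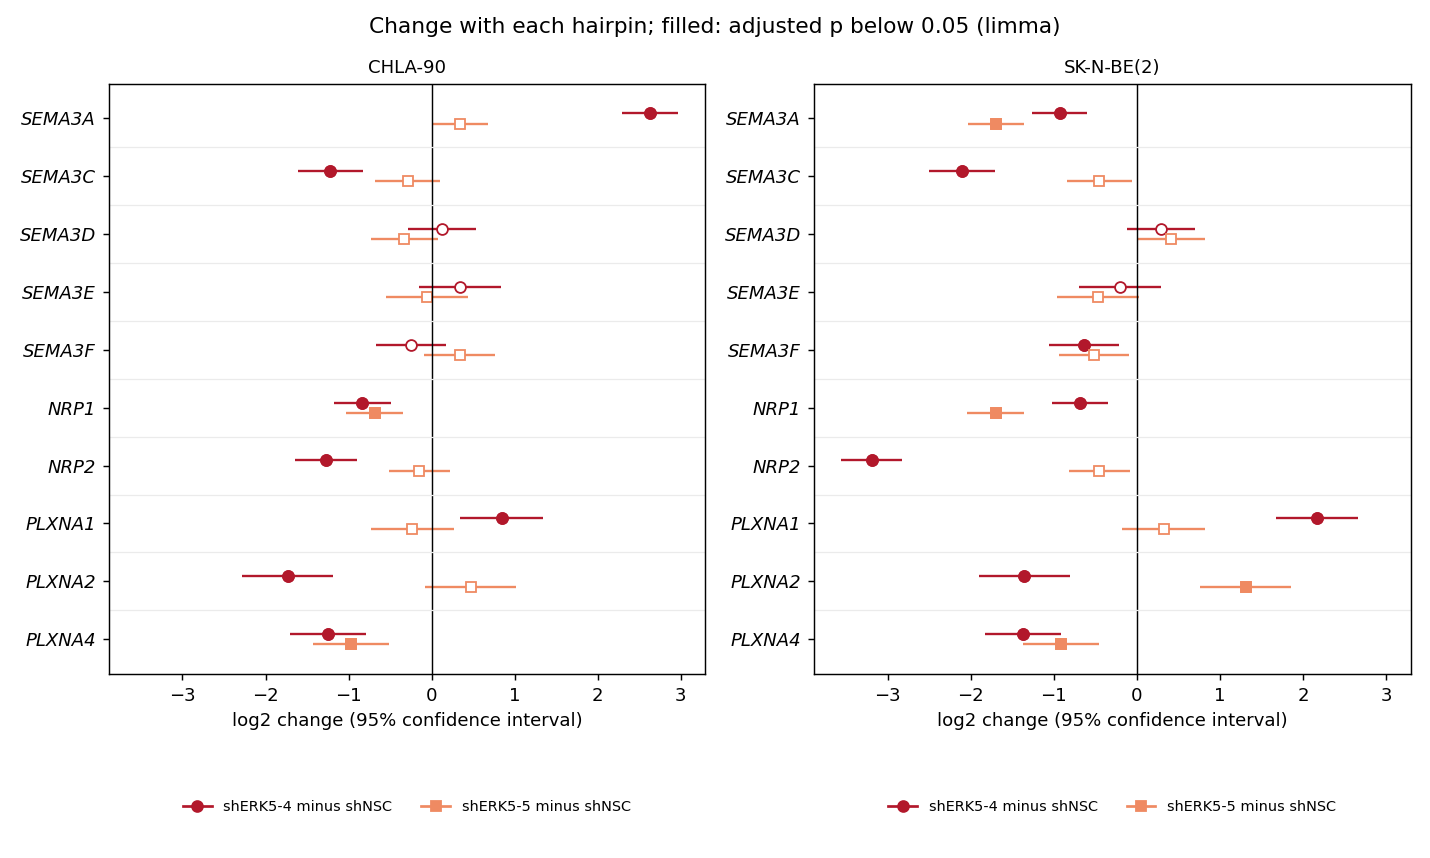
Log2 change (horizontal axis, with 95% confidence intervals from limma) of each gene with shERK5-4 and shERK5-5 against shNSC, in CHLA-90 (left) and SK-N-BE(2) (right); filled symbols have an adjusted p below 0.05. NRP1 and PLXNA4 lie left of 0 with filled symbols in all 4 comparisons, and SEMA3A lies at 2.63 with shERK5-4 in CHLA-90 and at -0.93 in SK-N-BE(2).

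SEMA3A (probe TC0700013578.hg.1), the founding repulsive ligand of the class and a ligand of NRP1, went opposite ways in the lines. In CHLA-90 its log2 signal was 9.93, 10.08 and 10.10 with shERK5-4, 7.78, 7.85 and 7.61 with shERK5-5 and 7.20, 7.48 and 7.53 with shNSC. The 3 shERK5-4 arrays stood more than 2 log2 units above every other CHLA-90 array, and the shERK5-5 arrays lay just above the shNSC arrays without overlap. The log2 change was 2.63 ± 0.16 (SE, as for all changes below) with shERK5-4 (adjusted p = 7.92e-11) and 0.34 ± 0.16 with shERK5-5 (adjusted p = 0.18). In SK-N-BE(2) it was 12.17, 11.99 and 12.14 with shERK5-4, 11.16, 11.33 and 11.50 with shERK5-5 and 12.91, 13.28 and 12.90 with shNSC. Here the groups did not overlap, and shNSC was the highest and shERK5-5 the lowest. SEMA3A fell to 52.5% of shNSC with shERK5-4 (log2 change -0.93 ± 0.16, adjusted p = 0.000122) and to 30.8% with shERK5-5 (-1.70 ± 0.16, adjusted p = 1.29e-07).

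SEMA3C (probe TC0700011626.hg.1), a secreted semaphorin that uses either neuropilin, fell with shERK5-4. Its values in CHLA-90 were 6.93, 6.28 and 6.98 with shERK5-4, 7.42, 7.73 and 7.83 with shERK5-5 and 7.79, 8.08 and 7.98 with shNSC. In SK-N-BE(2) they were 10.19, 10.08 and 10.38 with shERK5-4, 11.67, 11.80 and 12.14 with shERK5-5 and 12.33, 12.31 and 12.32 with shNSC. The shERK5-4 arrays were the lowest of each line, while shERK5-5 and shNSC overlapped in CHLA-90 and lay close together in SK-N-BE(2). The change with shERK5-4 was -1.22 ± 0.19 in CHLA-90 (adjusted p = 5.58e-05) and -2.10 ± 0.19 in SK-N-BE(2) (adjusted p = 1.75e-08), which left 42.9% and 23.3% of the shNSC signal. With shERK5-5 it was -0.29 (95% confidence interval -0.684 to 0.104, adjusted p = 0.363) and -0.45 (-0.844 to -0.0557, adjusted p = 0.145).

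The other 3 ligands gave 1 call in 12 comparisons with shNSC, in which between 5.85% and 12.2% of all probes were called in each direction. SEMA3D, a secreted semaphorin that patterns vessels and heart in mice, ranged over all CHLA-90 arrays from 4.20 to 5.17 and over all SK-N-BE(2) arrays from 7.32 to 8.08, with hairpin changes between -0.33 and 0.41. SEMA3E, which signals through plexin D1 without a neuropilin, ranged from 2.75 to 3.79 in CHLA-90 and from 6.71 to 7.81 in SK-N-BE(2), with changes between -0.46 and 0.34. Under shNSC the SEMA3E probe stood at the 5.46 percentile of all probes in CHLA-90, among the dimmest signals of the array. SEMA3F, the preferred NRP2 ligand, was at 4.85, 5.27 and 4.91 with shERK5-4, 5.03, 4.74 and 5.62 with shERK5-5 and 5.42, 5.76 and 5.76 with shNSC in SK-N-BE(2). Its 3 shERK5-4 arrays lay below the shNSC arrays, and the shERK5-5 arrays overlapped them. The change was -0.64 ± 0.20 with shERK5-4 (adjusted p = 0.0251) and -0.52 ± 0.20 with shERK5-5 (adjusted p = 0.115). That shERK5-4 call rests on few arrays: the adjusted p was 0.09 without shNSC replicate 2, 0.0902 without shNSC replicate 3, 0.0908 without shERK5-4 replicate 1 and 0.0779 without shERK5-4 replicate 3. It was 0.0554 when only the arrays of SK-N-BE(2) were fitted. Without shERK5-5 replicate 3 the shERK5-5 change was -0.76 (adjusted p = 0.0165). In CHLA-90 SEMA3F changed by -0.25 with shERK5-4 (adjusted p = 0.494) and by 0.34 with shERK5-5 (adjusted p = 0.32), at signals between 3.36 and 4.31.

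**Figure D2:**
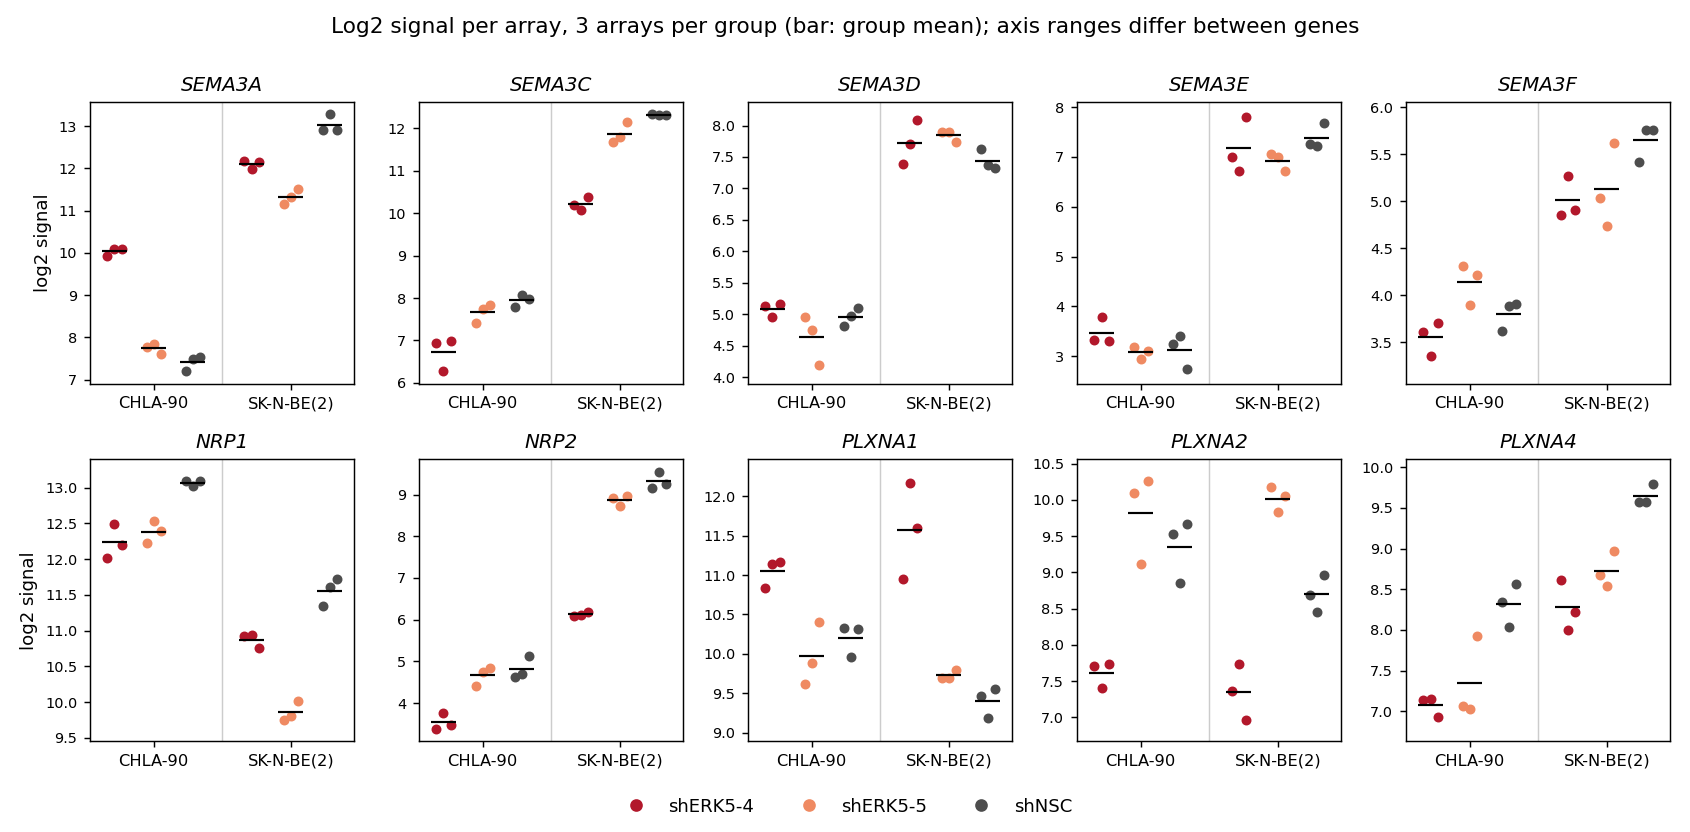
Log2 signal (vertical axis, a separate range for each gene) of every array, by line and hairpin, with a bar at each group mean. The 3 shERK5-4 arrays are the lowest of their line for NRP2, SEMA3C and PLXNA2 and the highest for PLXNA1, while NRP1 and PLXNA4 are lower than shNSC with both hairpins.

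NRP1 (probe TC1000010273.hg.1), the neuropilin that SEMA3A prefers, fell in all 4 comparisons. It read 12.02, 12.49 and 12.20 with shERK5-4, 12.23, 12.53 and 12.39 with shERK5-5 and 13.10, 13.02 and 13.09 with shNSC in CHLA-90. There the hairpin groups overlapped each other and neither reached shNSC. In SK-N-BE(2) it read 10.93, 10.94 and 10.75 with shERK5-4, 9.75, 9.80 and 10.02 with shERK5-5 and 11.34, 11.61 and 11.72 with shNSC, with 3 separate groups and shERK5-5 the lowest. The log2 changes in CHLA-90 were -0.83 ± 0.16 with shERK5-4 and -0.69 ± 0.16 with shERK5-5 (adjusted p = 0.000705 and 0.00697). In SK-N-BE(2) they were -0.68 ± 0.16 and -1.70 ± 0.16 (adjusted p = 0.00297 and 1.5e-07), so that 62.3% and 30.8% of the shNSC signal were left.

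NRP2 (probe TC0200010545.hg.1), the neuropilin that SEMA3F prefers, had the largest single change of the 10 genes. In SK-N-BE(2) it read 6.09, 6.11 and 6.18 with shERK5-4, 8.92, 8.73 and 8.96 with shERK5-5 and 9.15, 9.55 and 9.26 with shNSC. A gap of more than 2 log2 units separated the shERK5-4 arrays from all others of the line. The change with shERK5-4 was -3.19 ± 0.18 (adjusted p = 1.18e-11), a fall to 10.9% of shNSC, and with shERK5-5 it was -0.45 (95% confidence interval -0.821 to -0.0794, adjusted p = 0.115). In CHLA-90 NRP2 read 3.38, 3.77 and 3.47 with shERK5-4, 4.40, 4.75 and 4.85 with shERK5-5 and 4.62, 4.69 and 5.13 with shNSC. The shERK5-4 arrays were again the lowest, and the other groups overlapped. The change there was -1.27 ± 0.18 with shERK5-4 (adjusted p = 1.49e-05) and -0.15 ± 0.18 with shERK5-5 (adjusted p = 0.665). At the 14.7 percentile of all probes, the shERK5-4 signal in CHLA-90 is among the dimmest, and no detection calls were used, so its distance from background is unknown.

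PLXNA1 (probe TC0300008691.hg.1), a signalling partner of both neuropilins, was the receptor that rose with shERK5-4. The CHLA-90 signals were 10.84, 11.14 and 11.16 with shERK5-4, 9.62, 9.89 and 10.40 with shERK5-5 and 10.33, 9.96 and 10.32 with shNSC. In SK-N-BE(2) they were 10.95, 12.17 and 11.60 with shERK5-4, 9.69, 9.69 and 9.80 with shERK5-5 and 9.46, 9.19 and 9.56 with shNSC. The shERK5-4 arrays were the highest of each line. PLXNA1 rose by 2.17 ± 0.24 in SK-N-BE(2) (4.5-fold, adjusted p = 3.38e-07) and by 0.84 ± 0.24 in CHLA-90 (1.79-fold, adjusted p = 0.0153). Leaving out 1 array ended the CHLA-90 call in 3 cases, with an adjusted p of 0.081 without shNSC replicate 2, 0.0606 without shERK5-4 replicate 2 and 0.0608 without shERK5-4 replicate 3. With shERK5-5 the change was -0.23 in CHLA-90 (adjusted p = 0.596) and 0.32 in SK-N-BE(2) (adjusted p = 0.498).

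PLXNA2 (probe TC0100017145.hg.1), which also binds class 6 semaphorins, moved in opposite directions with the hairpins in SK-N-BE(2). It read 7.36, 7.73 and 6.97 with shERK5-4, 10.17, 9.83 and 10.05 with shERK5-5 and 8.69, 8.46 and 8.97 with shNSC there, so shNSC lay between both hairpins with no overlap. PLXNA2 fell with shERK5-4 (-1.35 ± 0.26, adjusted p = 0.000434) and rose with shERK5-5 (1.31 ± 0.26, 2.48-fold, adjusted p = 0.00127). In CHLA-90 it read 7.71, 7.40 and 7.74 with shERK5-4, 10.09, 9.12 and 10.26 with shERK5-5 and 9.53, 8.85 and 9.67 with shNSC. The fall with shERK5-4 recurred (-1.73 ± 0.26, adjusted p = 4.27e-05), while shERK5-5 overlapped shNSC (0.47 ± 0.26, adjusted p = 0.272). Without shERK5-5 replicate 2, the lowest of its group, that last change was 0.83 (adjusted p = 0.0335).

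PLXNA4 (probe TC0700012652.hg.1), which carries SEMA3A signals in sympathetic neurons of mice, fell in all 4 comparisons by amounts between 0.92 and 1.37 on the log2 scale. In CHLA-90 its values were 7.14, 7.15 and 6.93 with shERK5-4, 7.07, 7.03 and 7.93 with shERK5-5 and 8.35, 8.04 and 8.56 with shNSC. In SK-N-BE(2) they were 8.61, 8.0 and 8.22 with shERK5-4, 8.68, 8.54 and 8.97 with shERK5-5 and 9.57, 9.57 and 9.80 with shNSC. Every hairpin array lay below every shNSC array of its line, and replicate 3 of shERK5-5 in CHLA-90 came closest. The changes in CHLA-90 were -1.24 ± 0.22 with shERK5-4 and -0.97 ± 0.22 with shERK5-5 (adjusted p = 0.000241 and 0.0047). In SK-N-BE(2) they were -1.37 ± 0.22 and -0.92 ± 0.22 (adjusted p = 5.03e-05 and 0.00605). The shNSC signal left was 42.2% and 50.9% in CHLA-90 and 38.7% and 53.0% in SK-N-BE(2).

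Both hairpins target the same transcript, and comparing them directly shows which changes of the pathway they do not share. MAPK7 itself did not differ detectably between them, with log2 differences of -0.08 (95% confidence interval -0.484 to 0.324) in CHLA-90 and -0.06 (-0.461 to 0.347) in SK-N-BE(2). By the same test 6 of the 10 genes differed between shERK5-4 and shERK5-5 in CHLA-90 and 6 in SK-N-BE(2), against 27.2% and 24.5% of all probes. NRP2 (log2 difference -1.13 in CHLA-90 and -2.74 in SK-N-BE(2)), PLXNA2 (-2.21 and -2.66) and SEMA3C (-0.93 and -1.65) were lower with shERK5-4 than with shERK5-5 in each line. PLXNA1 (1.08 and 1.85) and SEMA3A (2.29 and 0.77) were higher with shERK5-4 in each. The largest adjusted p of these 10 differences was 0.00165, for PLXNA1 in CHLA-90. NRP1 was higher with shERK5-4 than with shERK5-5 in SK-N-BE(2) (1.02, adjusted p = 4.2e-05), and in CHLA-90 the difference was -0.15 (interval -0.486 to 0.193, adjusted p = 0.55). SEMA3F was lower with shERK5-4 in CHLA-90 (-0.58, adjusted p = 0.0378). That call was lost without shERK5-4 replicate 1 (adjusted p = 0.0675) or replicate 2 (0.152), and without shERK5-5 replicate 1 (0.122) or replicate 3 (0.0902). It was also lost with quantile normalization (-0.39, adjusted p = 0.19) and with array weights (0.0607). PLXNA4 had differences of -0.27 (interval -0.727 to 0.187) and -0.45 (-0.911 to 0.00396), which do not exclude a somewhat deeper fall with shERK5-4. For SEMA3D in CHLA-90 the difference was 0.45 (adjusted p = 0.0954), 0.61 without shERK5-5 replicate 1 (adjusted p = 0.0365) and 0.55 with quantile normalization (adjusted p = 0.0335).

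**Figure D3:**
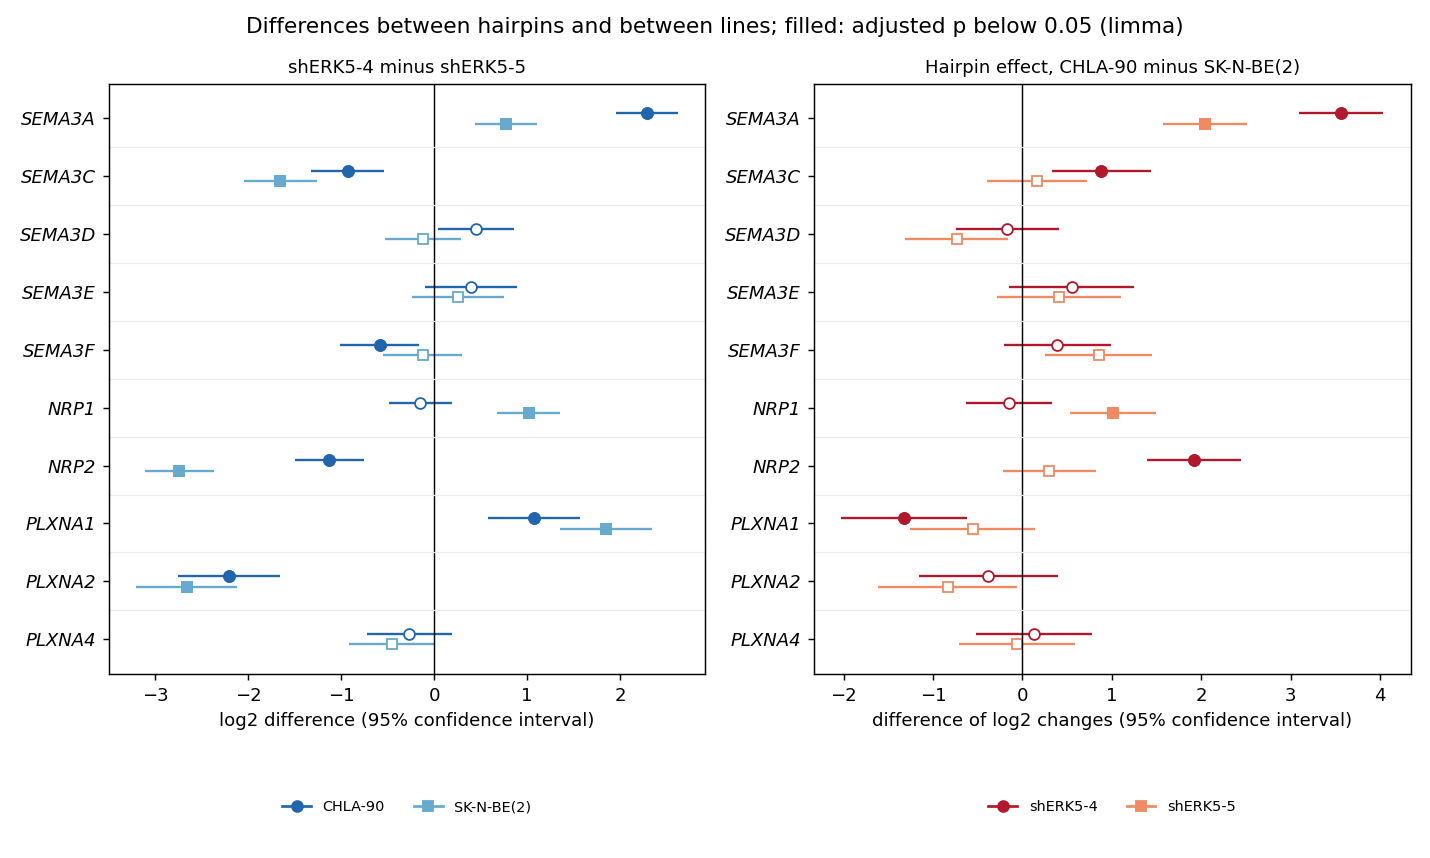
Left, log2 difference of shERK5-4 from shERK5-5 in each line; right, difference of each hairpin's log2 change between the lines (CHLA-90 minus SK-N-BE(2)), both with 95% confidence intervals and filled where the adjusted p is below 0.05. On the left NRP2, PLXNA2 and SEMA3C lie below 0 in both lines and PLXNA1 and SEMA3A above 0; on the right SEMA3A stands farthest from 0, at 3.56 with shERK5-4.

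The lines were compared by the difference of their hairpin effects. With shERK5-4, 4 of the 10 genes responded differently in CHLA-90 than in SK-N-BE(2), where 7.23% of all probes did, and with shERK5-5 2 did, where 5.39% of all probes did. SEMA3A differed with both hairpins, by 3.56 ± 0.23 with shERK5-4 (adjusted p = 4.72e-09) and 2.04 ± 0.23 with shERK5-5 (adjusted p = 1.31e-05). For NRP2 the difference was 1.92 ± 0.25 with shERK5-4 (adjusted p = 3.04e-05). Its CHLA-90 signal with shERK5-4 (3.54) lay below the lower quartile of all probes on those arrays, with an unknown distance from background, so the size of the fall in CHLA-90 may be understated. NRP1 fell less in CHLA-90 with shERK5-5 (1.01 ± 0.23, adjusted p = 0.0123). PLXNA1 rose less in CHLA-90 with shERK5-4 (-1.33 ± 0.34, adjusted p = 0.0171), a call lost without SK-N-BE(2) shNSC replicate 2 (adjusted p = 0.0525) or CHLA-90 shERK5-4 replicate 1 (0.0526). SEMA3C fell less in CHLA-90 with shERK5-4 (0.88 ± 0.27, adjusted p = 0.048). The SEMA3C call was lost on leaving out any 1 of 10 of the 12 arrays of the comparison, the exceptions being SK-N-BE(2) shERK5-4 replicate 3 and CHLA-90 shERK5-4 replicate 2. The adjusted p was then between 0.0581 and 0.135, and the call was also lost with median centring (0.064), with quantile normalization (0.113), with array weights (0.0602) and with the replicate number as a block (0.0502). PLXNA4 and PLXNA2 had no called difference, with intervals of -0.52 to 0.773 and -1.15 to 0.395 with shERK5-4, and -0.703 to 0.59 and -1.61 to -0.0619 with shERK5-5. For SEMA3F the shERK5-5 difference was 0.85 (adjusted p = 0.0916), 1.10 without SK-N-BE(2) shERK5-5 replicate 3 (adjusted p = 0.0285) and 0.96 with array weights (adjusted p = 0.0474).

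Under shNSC all 10 genes differed between CHLA-90 and SK-N-BE(2) on the deposited scale, where 60.0% of all probes did, and the median over all probes was 0.45 higher in CHLA-90. Centring each array on its median put that median at -0.27, and quantile normalization put it at -0.03. The 5 ligands were all lower in CHLA-90. Their log2 differences were -5.63 ± 0.16 for SEMA3A, -4.37 ± 0.19 for SEMA3C, -4.25 ± 0.24 for SEMA3E, -2.47 ± 0.20 for SEMA3D and -1.84 ± 0.20 for SEMA3F. NRP2 (-4.51 ± 0.18) and PLXNA4 (-1.33 ± 0.22) were lower as well, and these 7 kept sign and call under both other scalings, as did NRP1. The size of 2 of these 8 moved by over 1.5 times with median centring: NRP1 was then at 0.80 (1.14 with quantile normalization), and PLXNA4 at -2.05 (-1.90). NRP1 was higher in CHLA-90, with a mean of 13.07 ± 0.04 there and 11.56 ± 0.20 in SK-N-BE(2) (SD, n = 3 each, log2 difference 1.51 ± 0.16). PLXNA1 was 0.80 higher on the deposited scale, but 0.08 higher with centring (adjusted p = 0.793) and 0.28 with quantile normalization (0.371). PLXNA2 was 0.64 higher as deposited, and -0.07 with centring (adjusted p = 0.825) and 0.05 with quantile normalization (0.91). That PLXNA2 call was also lost without SK-N-BE(2) shNSC replicate 1 (adjusted p = 0.0822) or replicate 2 (0.144), and without CHLA-90 shNSC replicate 1 (0.123) or replicate 3 (0.167). Across the 6 groups, NRP2 was ordered from CHLA-90 shERK5-4 (3.54) over CHLA-90 shERK5-5 (4.67), CHLA-90 shNSC (4.81), SK-N-BE(2) shERK5-4 (6.13) and SK-N-BE(2) shERK5-5 (8.87) to SK-N-BE(2) shNSC (9.32). Within each line the neighbours shERK5-5 and shNSC were not told apart by the test, and neighbours from different lines with different hairpins were not tested. SEMA3A signals ran from CHLA-90 shNSC (7.40) over CHLA-90 shERK5-5 (7.75), CHLA-90 shERK5-4 (10.04), SK-N-BE(2) shERK5-5 (11.33) and SK-N-BE(2) shERK5-4 (12.10) to SK-N-BE(2) shNSC (13.03). CHLA-90 shNSC and shERK5-5 were not told apart by the test, and CHLA-90 shERK5-4 was not tested against SK-N-BE(2) shERK5-5.

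Related genes were counted from lists that were also set with earlier results known, and medians of all probes are given above. Of the 6 other plexins, 1 was higher and 0 lower with shERK5-4 in CHLA-90 (median log2 change 0.46) and 0 higher and 1 lower with shERK5-5 (-0.12). In SK-N-BE(2) 3 were higher and 0 lower with shERK5-4 (0.80), and 2 higher and 0 lower with shERK5-5 (0.18). PLXND1, the receptor of SEMA3E, rose in SK-N-BE(2) with both hairpins (1.98 ± 0.29 and 1.19 ± 0.29) and changed by -0.02 and -0.22 in CHLA-90, neither called. PLXNA3, the remaining A-type plexin, rose in SK-N-BE(2) with both (1.09 ± 0.20 and 0.65 ± 0.20). PLXNC1, the receptor of SEMA7A, rose with shERK5-4 in SK-N-BE(2) (1.54 ± 0.25) and fell with shERK5-5 in CHLA-90 (-0.84 ± 0.25). PLXNB3 rose with shERK5-4 in CHLA-90 (1.14 ± 0.29). SEMA3G, the 1 measured gene of the 2 listed as other class 3 semaphorins, had no call.

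Semaphorins of classes 4 to 7 are mostly membrane-bound. Of these 13 genes, 1 was higher and 3 lower with shERK5-4 in CHLA-90, and 1 and 1 with shERK5-5. In SK-N-BE(2) 3 were higher and 2 lower with shERK5-4, and 3 and 2 with shERK5-5. Their medians lay between -0.14 and 0.23. For comparison, 10% of all probes were higher and 8.25% lower with shERK5-4 in CHLA-90, and 5.85% and 6.84% with shERK5-5. The shares in SK-N-BE(2) were 12.2% and 11.7% with shERK5-4, and 6.76% and 6.07% with shERK5-5. SEMA5A fell with shERK5-4 in CHLA-90 (-1.28 ± 0.26) and in SK-N-BE(2) (-2.12 ± 0.26), and its shERK5-5 changes of 0.37 and -0.29 were not called. Its CHLA-90 signal with shERK5-4 was dim, with a mean of 4.15, where the lower quartile of all probes was 4.06 to 4.29. SEMA6C fell with shERK5-4 in CHLA-90 (-1.48 ± 0.21). SEMA4G rose with shERK5-4 in CHLA-90 (1.11 ± 0.20) and in SK-N-BE(2) (0.64 ± 0.20), and it fell with shERK5-5 in CHLA-90 (-0.68 ± 0.20). Its SK-N-BE(2) signal was dim, with means of 3.54 under shNSC and 4.18 with shERK5-4, where the lower quartile of all probes was 3.54 to 3.67. SEMA6A, a ligand of A-type plexins, fell with shERK5-4 in CHLA-90 (-0.95 ± 0.18), while in SK-N-BE(2) it rose with shERK5-4 (0.66 ± 0.18) and fell with shERK5-5 (-0.74 ± 0.18).

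Among 4 adhesion molecules that join neuropilin complexes, L1CAM had the largest change. It rose in SK-N-BE(2) by 3.31 ± 0.21 with shERK5-4 (adjusted p = 6.39e-11) and by 0.68 ± 0.21 with shERK5-5 (0.032), and its changes in CHLA-90 of 0.53 and 0.00 were not called. NRCAM fell with shERK5-4 in CHLA-90 (-0.66 ± 0.15), and CHL1 and CNTN2 had no call. Of 21 measured intracellular effectors, 2 were higher and 2 lower with shERK5-4 in CHLA-90, and 1 higher and 0 lower with shERK5-5. In SK-N-BE(2) 6 were higher and 3 lower with shERK5-4, and 3 higher and 0 lower with shERK5-5. Among all probes, 10% were higher and 8.25% lower with shERK5-4 in CHLA-90, and 5.85% and 6.84% with shERK5-5. The shares in SK-N-BE(2) were 12.2% and 11.7% with shERK5-4, and 6.76% and 6.07% with shERK5-5. LIMK1, the kinase that inactivates cofilin downstream of SEMA3A, rose with shERK5-4 in CHLA-90 (2.16 ± 0.28) and with both hairpins in SK-N-BE(2) (3.37 ± 0.28 and 1.55 ± 0.28). DPYSL5, of the collapsin response mediator family, rose in all 4 comparisons, by 0.74 ± 0.18 and 0.92 ± 0.18 in CHLA-90 and by 0.82 ± 0.18 and 1.40 ± 0.18 in SK-N-BE(2). FARP2, an exchange factor that binds plexin A1 in mouse neurons, fell with shERK5-4 in both lines (-1.32 ± 0.19 in CHLA-90 and -1.68 ± 0.19 in SK-N-BE(2)).

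Neuropilins also serve the vascular endothelial growth factors. Of these 8 ligands and receptors, 1 was higher and 2 lower with shERK5-4 in CHLA-90, and 1 higher and 0 lower with shERK5-5. In SK-N-BE(2) 2 were higher and 2 lower with shERK5-4, and 3 higher and 2 lower with shERK5-5. By the same test 10% of all probes were higher and 8.25% lower with shERK5-4 in CHLA-90, and 5.85% and 6.84% with shERK5-5. The shares in SK-N-BE(2) were 12.2% and 11.7% with shERK5-4, and 6.76% and 6.07% with shERK5-5. VEGFA rose in SK-N-BE(2) with both hairpins (1.11 ± 0.19 and 0.90 ± 0.19) and fell with shERK5-4 in CHLA-90 (-0.55 ± 0.19). VEGFC, whose receptor complex includes NRP2, rose in SK-N-BE(2) with both (1.25 ± 0.29 and 1.50 ± 0.29). VEGFD fell with shERK5-4 in both lines (-1.05 ± 0.22 in CHLA-90 and -0.65 ± 0.22 in SK-N-BE(2)) and rose with shERK5-5 in SK-N-BE(2) (0.89 ± 0.22).

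**Figure D4:**
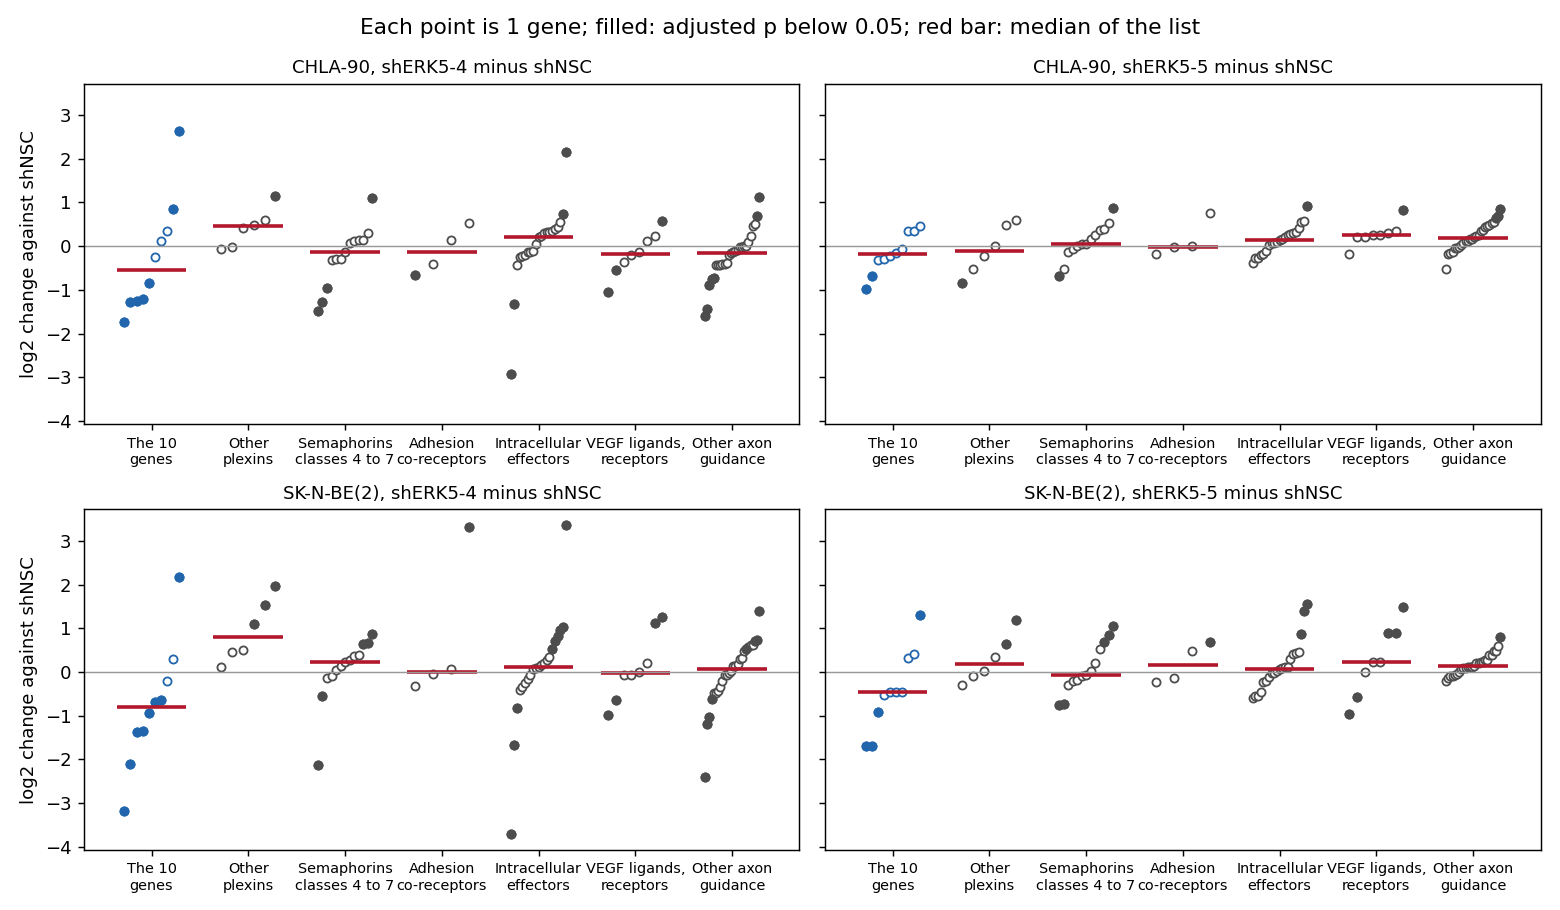
Log2 change against shNSC (vertical axis) of the 10 genes and of 6 lists of related genes, in 4 panels for line and hairpin; each point is 1 gene, sorted by value within its list, filled where the adjusted p is below 0.05, with a red bar at the list's median. The median of the 10 genes is -0.54 and -0.81 with shERK5-4 in CHLA-90 and SK-N-BE(2), and that of the other plexins is 0.46 and 0.80.

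Genes whose signal followed NRP2 most closely were sought over all 18 arrays after each line's mean was subtracted. RXYLT1, a glycosyltransferase that acts on dystroglycan, had r = 0.973, POPDC2, a cAMP-binding membrane protein, had r = 0.972, and SPECC1L, a cytoskeletal linker, had r = 0.967. The arrays form 3 hairpin groups in each line and are not 18 independent points. RXYLT1 changed by -2.29 in CHLA-90 and -3.77 in SK-N-BE(2) with shERK5-4, and by -0.23 and -0.28 with shERK5-5.

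Some marker genes of other cell types and of the sympathetic state moved with the same comparisons. Their counts too are read against the shares of all probes called in the same comparisons. With shERK5-4 these were 10% higher and 8.25% lower in CHLA-90, and 12.2% and 11.7% in SK-N-BE(2). With shERK5-5 they were 5.85% and 6.84% in CHLA-90, and 6.76% and 6.07% in SK-N-BE(2). Of 7 measured sympathetic markers, 5 were lower with shERK5-4 in CHLA-90 and 4 in SK-N-BE(2), with 0 higher. With shERK5-5, 1 was lower in CHLA-90 and 1 higher in SK-N-BE(2). Their median log2 change with shERK5-4 was -2.27 in CHLA-90 and -0.84 in SK-N-BE(2). In CHLA-90 DBH changed by -5.27, CHGA by -3.92, ISL1 by -3.28 and PHOX2A by -2.27 with that hairpin. The log2 of the summed marker signal in CHLA-90 was 15.37 to 15.71 with shERK5-4, 16.26 to 16.62 with shERK5-5 and 16.24 to 16.70 with shNSC. In SK-N-BE(2) it was 13.33 to 13.84, 14.61 to 14.86 and 14.66 to 14.93. The sum is made on the linear scale, so TH, the brightest in CHLA-90 (change 0.06 with shERK5-4, not called), weighs most there. Of 4 measured fibroblast markers, 2 were lower with shERK5-4 in CHLA-90, and 1 was lower and 1 higher in SK-N-BE(2). With shERK5-5, 0 changed in CHLA-90 and 2 were higher in SK-N-BE(2). Their log2 summed signal was 10.88 to 11.11 with shERK5-4, 12.48 to 12.71 with shERK5-5 and 12.33 to 12.43 with shNSC in CHLA-90, and 11.31 to 11.51, 13.40 to 13.48 and 11.51 to 11.59 in SK-N-BE(2). That sum is made on the linear scale, so DCN, a matrix proteoglycan and the brightest of the 4 in each group, weighs most in it. DCN rose by 2.21 ± 0.15 with shERK5-5 in SK-N-BE(2) and fell by 1.63 ± 0.15 with shERK5-4 in CHLA-90. In the latter comparison PDGFRA fell too (-1.58 ± 0.22), while COL1A1 (0.12) and COL1A2 (0.00) were not called. The blood marker PTPRC fell with shERK5-4 in SK-N-BE(2) (-1.95 ± 0.17), while the blood markers CD68 (-0.31) and CD3E (0.08) were not called there. S100B, a Schwann cell marker, rose in the same comparison (0.66 ± 0.19). SOX10, the other measured Schwann cell marker, was not called (0.21). None of the 4 endothelial markers was called in any of the 4 hairpin comparisons by limma. The smallest unadjusted p of the 4 was 0.0291, for CDH5. The part of these markers in the changes of the semaphorin genes was not tested.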

How the data were processed

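Expression was measured on 18 whole-transcript arrays, 3 for each of 6 groups taken from the labels. Each deposited value is a log2 signal of 1 probe on 1 array, already normalized when deposited. Its log base was inferred from the range. How signals were summarised, and with which software, is not given in the sources used here. Precision is limited by the number of arrays, since arrays have no read depth. A table of GEO's platform annotation gave 17709 of 21448 probes 1 gene symbol and 3739 none.

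One limma model (version 3.58.1, R 4.3.3) with a mean per group was fitted to all probes and arrays with lmFit and eBayes (12 residual and 9.588 prior degrees of freedom). In each of 9 contrasts the Benjamini-Hochberg adjustment covered all 21448 probes, and an adjusted p below 0.05 was a call at any fold. The fit was tested on simulated data. Upstream sequences come from RefSeq (GRCh38.p14). Python 3.11.15 with matplotlib 3.10.9 drew the figures.

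The members and all lists were chosen with earlier results of these data known. Named were all 10 members, MAPK7, at most 4 genes of each list, among those with the smallest p, and the 3 protein-coding genes most like the member with the largest change. TH was named besides, for its weight in the summed marker signal. Alternatives were median centring, quantile normalization, leaving out dim probes, a replicate block, fits within a line, trend and robust estimation, array weights, a threshold of 0.01, and leaving out each array. Same-numbered arrays of a line had deviations correlated between -0.126 and 0.204, with 7 of 18 pairs over 0.1. Those of replicate 3 lay between 0.114 and 0.204 over both lines, and differently numbered arrays between -0.23 and 0.24. The main fit did not take the numbers to pair the arrays, and the replicate block among the alternatives did. One result among the intracellular effectors is not reported here.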

Additional observations from a re-analysis of the deposited data

Results flagged for a closer look

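These results were marked because the response to a hairpin differed between the lines by the interaction term of the limma model. Each value is the CHLA-90 log2 change less the SK-N-BE(2) one. For shERK5-4 it was 3.56 for SEMA3A, which changed by 2.63 in CHLA-90 and by -0.93 in SK-N-BE(2). It was 1.92 for NRP2 (-1.27 and -3.19), 0.88 for SEMA3C (-1.22 and -2.10) and -1.33 for PLXNA1 (0.84 and 2.17). For shERK5-5 it was 2.04 for SEMA3A (0.34 and -1.70) and 1.01 for NRP1 (-0.69 and -1.70). The SEMA3A change of 0.34 was itself not called.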

How the results depend on the processing

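Each of 90 gene changes (10 genes in 9 contrasts) was recomputed under the alternatives, except that fits within 1 line cover the 60 within a line (59 kept their call) and leaving out an array covers the arrays of its contrast. All kept their sign and their side of the threshold with trend and robust estimation and without dim probes. The count of members whose shERK5-4 effect differed between lines was 4, and 2 at a threshold of 0.01. It lay between 2 and 4 when single arrays were left out. For shERK5-5 it was 2, and 1 at a threshold of 0.01. With the replicate block 89 of 90 calls were kept, and the exception was SEMA3C in the shERK5-4 difference between lines (0.88, adjusted p = 0.0502). Signs turned for PLXNA2 between the lines under shNSC with median centring (-0.075), and for the PLXNA4 line differences with quantile normalization (-0.032, shERK5-4) and array weights (0.027, shERK5-5), and the cause was not tested. When single arrays were left out, the sign of 10 uncalled changes turned. For SEMA3D the range was -0.293 to 0.0517 (hairpins compared in SK-N-BE(2)) and -0.335 to 0.01 (shERK5-4 between lines). For SEMA3E it was -0.523 to 0.0217 (shERK5-4 in SK-N-BE(2)), -0.06 to 0.485 (hairpins compared in SK-N-BE(2)) and -0.245 to 0.085 (shERK5-5 in CHLA-90). For SEMA3F it was -0.315 to 0.125 (hairpins compared in SK-N-BE(2)), and for NRP2 -0.243 to 0.0117 (shERK5-5 in CHLA-90). For PLXNA4 it was -0.0117 to 0.293 and -0.35 to 0.10 (shERK5-4 and shERK5-5 between lines) and -0.427 to 0.0233 (hairpins compared in CHLA-90). With array weights SEMA3F (-0.62, adjusted p = 0.0184) and NRP2 (-0.47, adjusted p = 0.037) also passed with shERK5-5 in SK-N-BE(2). Each member has 1 probe, so averaging probes changes nothing. Dim signals limit SEMA3E, SEMA3F and NRP2 in CHLA-90.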

Other observations

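Of 26 measured ligands and receptors outside the semaphorin system, 2 were higher and 5 lower with shERK5-4 in CHLA-90, and 3 higher and 0 lower with shERK5-5. In SK-N-BE(2) 4 were higher and 4 lower with shERK5-4, and 1 higher and 0 lower with shERK5-5. Of all probes, 10% were higher and 8.25% lower with shERK5-4 in CHLA-90, 5.85% and 6.84% with shERK5-5, and in SK-N-BE(2) 12.2% and 11.7% with shERK5-4 and 6.76% and 6.07% with shERK5-5. UNC5C, a repulsive netrin receptor, fell with shERK5-4 in both lines (-1.59 ± 0.19 in CHLA-90 and -2.41 ± 0.19 in SK-N-BE(2)), and its shERK5-5 changes of 0.27 and 0.23 were not called. SLIT3, a secreted ligand of ROBO receptors, fell with shERK5-4 as well (-1.44 ± 0.16 and -1.03 ± 0.16). NEO1, a receptor of netrins and repulsive guidance molecules, rose with shERK5-4 in CHLA-90 (0.69 ± 0.16) and with both hairpins in SK-N-BE(2) (1.40 ± 0.16 and 0.80 ± 0.16). SLIT2 fell with shERK5-4 in SK-N-BE(2) (-1.19 ± 0.22) and rose with shERK5-5 in CHLA-90 (0.69 ± 0.22, adjusted p = 0.0439). Its mean with shERK5-4 in SK-N-BE(2), 3.8, lay close to the lower quartile of all probes there (3.54 to 3.67).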
